A study of Mus musculus with 18 samples.

Results

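The 31 genes described here act at the step from G1 into S phase and in the copying of DNA. They were taken from a list of gene names, and each was represented by the probe set annotated to that gene alone, or by the one with the highest mean where there were several. All 31 of the 31 listed genes were measured, among 19938 genes in all. RNA came from wild type MEFs, fibroblasts that grow out of minced mouse embryos, here of C57BL/6 mice at embryonic day 13 with head and liver removed. Every culture had been exposed to 100 nM dexamethasone for 2 h, a glucocorticoid drug used to bring the daily clocks of cultured cells into step. Samples were taken 22, 26, 30, 34, 40 and 46 h after this treatment, with 3 arrays a time, 18 in all, so every group shares the genotype and the treatment, and no culture without dexamethasone was analysed here. According to the labels the cells derive from 2 mice. They describe the serum of the medium in more than one way, and call the 3 samples of a time biological replicates without naming separate cultures, so the p-values here cover only sample-to-sample spread, which may be technical.

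As background, a cell commits to S phase when cyclin-dependent kinases release E2F transcription factors from the retinoblastoma family of pocket proteins, and E2F then drives most genes of the replication machinery. The ring of MCM2 to MCM7 proteins is loaded on origins by the origin recognition complex, CDC6 and CDT1, and is turned into a moving helicase by CDC45 and the GINS complex. Polymerases, the PCNA clamp, nucleases, nucleotide enzymes and histone chaperones then do the synthesis. Messages of these genes are high in cycling fibroblasts and low in cells that have left the cycle. In RNA from a whole dish, fewer cells in S phase and less message per cell cannot be told apart.

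Promoter sequences are shown first because E2F binding sites are what many of these genes are known to share. The RefSeq promoter table of build GRCm38.p6, with 250 bases before and 50 bases after each annotated start, held 25 of the 31 genes. The letters TTTCCCGC, TTTCGCGC, TTTGCCGC and TTTGGCGC were searched on both strands, and matches may overlap. Of the 25 genes, 9 had a match (36%), against 2.6% of all 27025 symbols in the table, 2.26% of all 32851 windows and 3.12% of 32 genes of a G2/M and mitosis list. The 5 sequences below are the 200 bases before the start, written 5′ to 3′ on the strand of the gene, with matches in capitals. They were chosen to set MCM subunit genes that fell (Mcm5 and Mcm7) beside the subunit gene that did not pass the test (Mcm6), with Cdc6 of the loading step and Pola1 of the polymerase.
Mcm5, chr8:75109309-75109508, plus strand: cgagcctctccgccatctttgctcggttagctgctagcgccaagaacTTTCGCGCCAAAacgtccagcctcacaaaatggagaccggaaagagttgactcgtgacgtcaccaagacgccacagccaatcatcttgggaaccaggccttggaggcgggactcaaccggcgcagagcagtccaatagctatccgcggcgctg
Mcm7, chr5:138171884-138172083, minus strand: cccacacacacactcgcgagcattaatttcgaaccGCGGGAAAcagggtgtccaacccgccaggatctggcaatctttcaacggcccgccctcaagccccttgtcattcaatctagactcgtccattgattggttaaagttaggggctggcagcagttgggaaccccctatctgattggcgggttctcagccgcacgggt
Mcm6, chr1:128359706-128359905, minus strand: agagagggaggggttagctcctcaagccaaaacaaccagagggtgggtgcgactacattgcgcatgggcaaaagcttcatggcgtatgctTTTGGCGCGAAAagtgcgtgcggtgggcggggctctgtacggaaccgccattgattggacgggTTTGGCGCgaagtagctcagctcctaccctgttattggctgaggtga
Cdc6, chr11:98907951-98908150, plus strand: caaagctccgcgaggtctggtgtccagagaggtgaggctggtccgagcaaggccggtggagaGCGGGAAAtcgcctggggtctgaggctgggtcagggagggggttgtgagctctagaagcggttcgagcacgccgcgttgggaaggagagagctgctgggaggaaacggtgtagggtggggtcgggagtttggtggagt
Pola1, chrX:93632156-93632355, minus strand: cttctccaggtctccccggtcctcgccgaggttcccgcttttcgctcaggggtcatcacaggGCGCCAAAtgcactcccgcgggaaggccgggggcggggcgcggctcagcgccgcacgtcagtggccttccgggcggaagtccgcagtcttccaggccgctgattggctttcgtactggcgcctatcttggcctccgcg

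In Mcm5 a forward TTTCGCGC starting at base -153 overlaps a reverse TTTGGCGC starting at -149, counted from -1 at the base before the start. Mcm6 has a forward TTTGGCGC at -110 overlapping a reverse TTTCGCGC at -106 and a further forward TTTGGCGC at -47, the most matches of any of the 25 genes. A reverse TTTCCCGC starts at -165 in Mcm7 and at -138 in Cdc6, and a reverse TTTGGCGC at -138 in Pola1. Over the 25 genes the median change from 22 h to 46 h was -0.71 for the 9 with a match and -0.69 for the 16 without, given as a description. The other genes with a match were Mcm3, Cdt1, Uhrf1 and Rfc3. The windows of Ccne1 and E2f1 held none of these letters, which says only that they are absent from these windows. The pentamer CCAAT, which the factor NF-Y binds, was found in 16 of the 25 genes (64%), against 41.1% of all symbols and 75% of the same 32 mitotic genes. The hexamer TTTGAA, known as the core of an element in promoters of late cell cycle genes, was found in 3 of 25 (12%), against 20.2% of all symbols and 71.9% of those 32 genes. These matches are descriptions of sequence, not measured sites.

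Array medians ran from an intensity of 195.9 to 210.2. Precision is limited by there being 3 arrays a time. Levels are given as log2(intensity + 16) after quantile normalization, and a change or a fold is a difference on that scale, which understates the change of dim genes. Fibroblast markers were among the brightest genes: Col1a1, Col1a2, Vim, Fn1 and Dcn had mean levels from 12.94 to 13.47, against a median of 8.07 over all genes, whereas Thy1 and Fap were at 7.32 and 5.97. The 7 marker lists of other cell types (macrophage, endothelial, epithelial, neural, skeletal muscle, cartilage and bone, adipocyte) had median levels from 6.56 to 8.18. Single genes of these lists ran from 6.00 (Lyz2) to 9.93 (Sox9), and the cartilage gene Col2a1 was at 9.32. Of the 12 fibroblast markers 6 rose and 1 fell between 22 h and 46 h, and the summed intensity of that list went from 58540 to 61930 at 22 h to 68350 to 69090 at 46 h. The summed intensity of the epithelial list went from 934.6 to 987.1 down to 747.3 to 799.0, and of its 6 genes Krt19 fell by 0.93 and Krt8 by 0.28, while the other 4 did not pass (from -0.14 for Krt14 to 0.12 for Krt18). In the other lists the genes called from 22 h to 46 h were Cd14 (-0.30), Nes (-0.21), Sox9 (-0.23), Myod1 (0.16) and Col2a1 (0.48). The part of these markers in the results below was not tested. Replicate 2 at 22 h stood apart from the other 22 h arrays in the genes described here. Counts of called genes and list medians of the 31 against 22 h are given with and without it. Counts of genes whose arrays did not overlap, or whose mean was highest or lowest at a time, are given only with it. All comparisons with 22 h share its 3 arrays.

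Most genes of replication had less message at 46 h than at 22 h, 24 h earlier. Of the 31 genes, 28 fell, 0 rose and 3 did not pass the test (limma, adjusted p under 0.05), while 9.73% of all genes were called lower. The median change of the 31 was -0.70 log2, against 0.03 over all genes. No filter on low values was applied, so all 31 were tested. Without replicate 2 at 22 h the count was 28 again, and without other single arrays it was at least 25. The largest falls were those of Uhrf1, Exo1 and Mcm10, which were 2.16-fold, 2.16-fold and 2.13-fold lower. In 27 of the 31 every array of 22 h lay above every array of 46 h, as in 15.3% of all genes. Over the 6 times together, limma's F test called 25 of the 31, against 19.8% of all genes. That count was 28 without replicate 2 at 22 h and 24 without replicate 1 at 22 h. The 22 h mean was the highest of the 6 in 30 of the 31 genes, as in 19.5% of all genes. The lowest mean was at 46 h in 17 of the 31 and at 40 h in 11, against 18.9% and 15.3% of all genes. The heat map of the 31 genes by array shows both the common fall and the few rows that lack it.

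**Figure D1:**
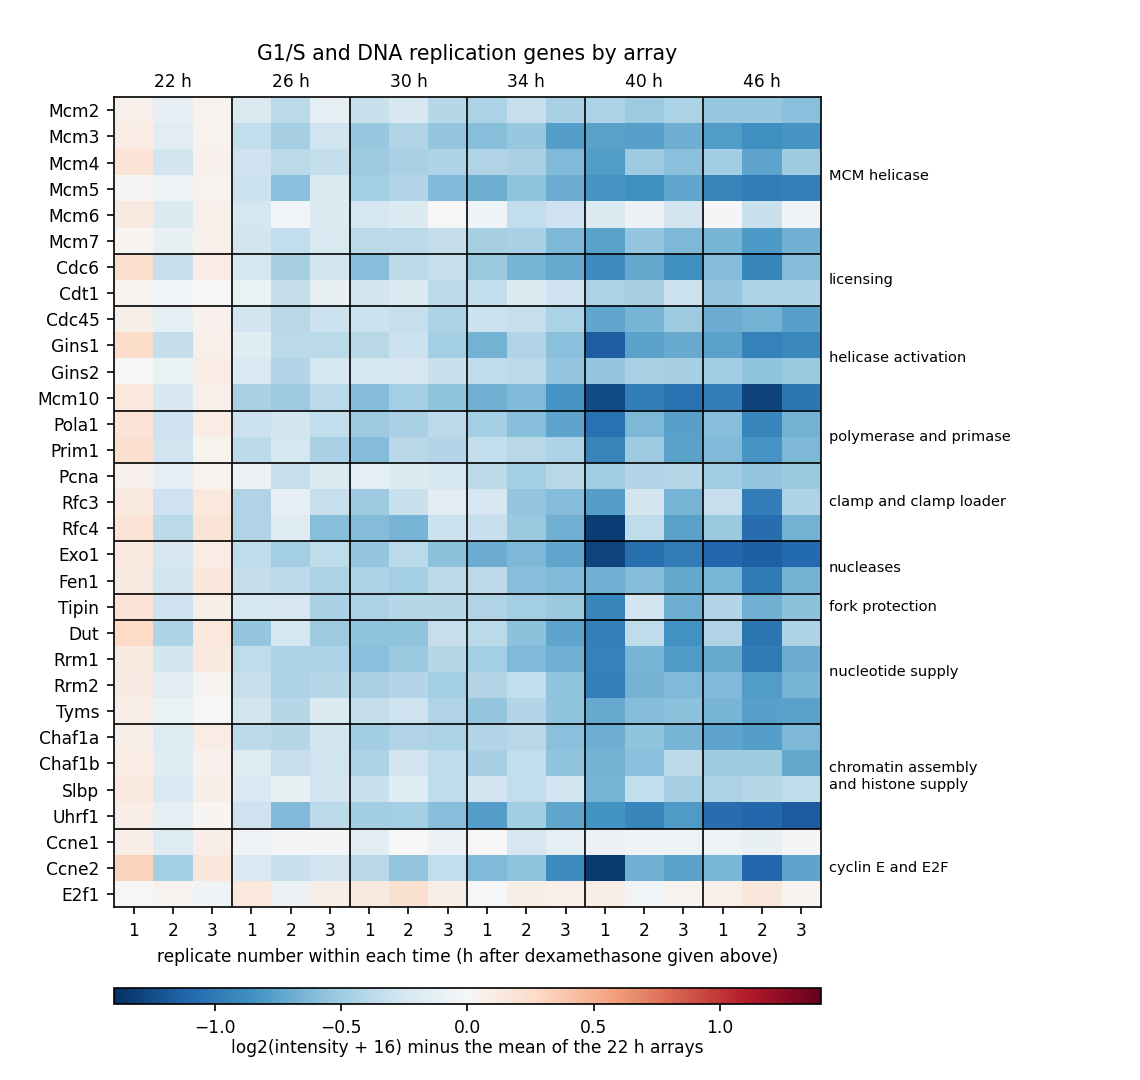
Each row is a gene and each column an array, grouped by hours after dexamethasone, and the colour is log2(intensity + 16) minus the mean of the 22 h arrays of that gene. Most rows turn blue from 26 h on and are darkest at 40 and 46 h, while Mcm6, Ccne1 and E2f1 stay pale, and replicate 2 at 22 h is the lowest of its time in 30 of 31 rows.

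The MCM genes encode the 6 subunits of the replicative helicase, and 5 of the 6 fell between 22 h and 46 h. Mcm5 read 10.20, 10.12 and 10.24 in the 3 arrays of 22 h, then 9.50, 9.62 and 9.49 by 34 h and 9.25, 9.21 and 9.23 by 46 h. Its arrays did not overlap between these times, and it changed by -0.96 ± 0.08 (SE, 3 arrays a time; adjusted p = 2.02e-07, limma). Mcm3 went from 9.96, 9.71 and 9.90 at 22 h to 9.51, 9.39 and 9.58 by 26 h and to a mean of 9.04 ± 0.04 (SD, n = 3) by 46 h, a change of -0.82 ± 0.07 (adjusted p = 2.79e-07, limma). Mcm7, Mcm4 and Mcm2 changed by -0.71, -0.58 and -0.55, and for each of them all 22 h arrays lay above all 46 h arrays.

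Mcm6 was the MCM subunit gene that did not pass. Its arrays were at 11.24, 10.93 and 11.19 at 22 h and at 11.09, 10.81 and 11.07 at 46 h, which overlap, and the change was -0.13 ± 0.10 (adjusted p = 0.394, limma). A missed threshold does not show that Mcm6 was constant. The difference between Mcm6 and the mean of the other 5 subunits, a contrast chosen after these values were seen, averaged 0.78 ± 0.05 in the 22 h arrays (SD, n = 3) and 1.37 ± 0.11 in those of 46 h, in arrays that did not overlap. The 2-sided exact permutation p was 0.1, the smallest that 3 against 3 arrays can give (0.1 also after Benjamini-Hochberg adjustment over 2 such ratios).

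**Figure D2:**
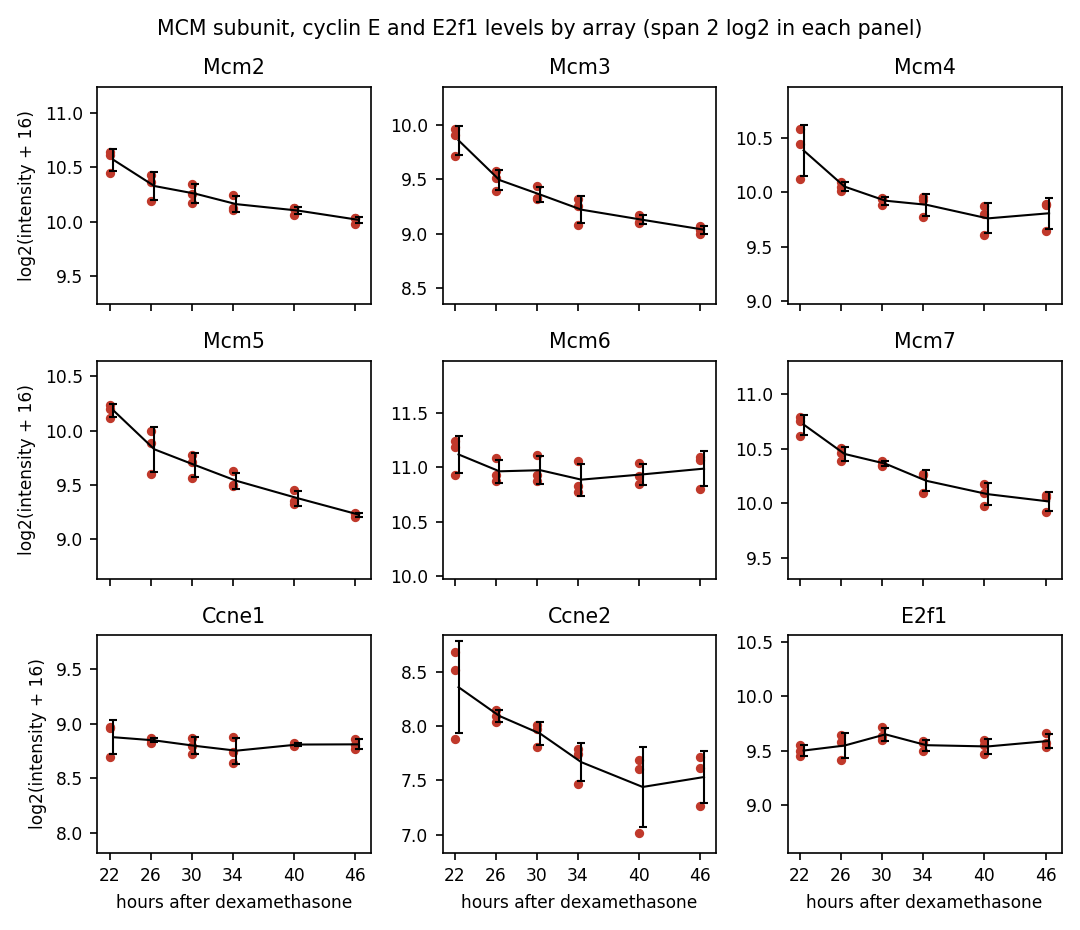
Each panel shows 1 gene, with the 18 arrays as red points at their hours after dexamethasone and the mean ± SD of 3 arrays in black, on the log2(intensity + 16) scale over a span of 2 log2. Mcm2, Mcm3, Mcm4, Mcm5, Mcm7 and Ccne2 slope down, while Mcm6, Ccne1 and E2f1 lie within overlapping ranges at 22 and 46 h.

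The genes that load the helicase and switch it on fell too. Cdc6 and Cdt1, the loading factors, changed by -0.71 and -0.47. All 4 of the genes for helicase activation fell: Mcm10, a replication initiation factor, by -1.09 ± 0.10 (adjusted p = 5.46e-07, limma), the GINS subunit genes Gins1 and Gins2 by -0.86 and -0.53, and Cdc45 by -0.70. Mcm10 started from 9.11, 8.74 and 9.04 at 22 h, stood at 8.30, 8.35 and 8.14 by 34 h and had a mean of 7.88 ± 0.18 (SD, n = 3) in the 46 h arrays. Cdc45 arrays read 9.01, 8.79 and 8.99 at 22 h, then 8.63, 8.61 and 8.49 by 34 h and 8.23, 8.27 and 8.17 by 46 h. Neither gene had overlapping arrays between these 3 times.

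Genes of DNA synthesis itself fell as well. Pola1, the catalytic subunit of polymerase alpha, and Prim1, the primase that lays down RNA primers with it, changed by -0.73 ± 0.12 and -0.69 ± 0.11. Pcna, the sliding clamp, went from 11.78, 11.60 and 11.76 at 22 h to 11.23, 11.16 and 11.19 at 46 h (-0.52 ± 0.06, adjusted p = 1.13e-05, limma). A further probe set annotated to Pcna alone changed by -0.53. Of the clamp loader subunits, Rfc4 changed by -0.75 ± 0.21 and Rfc3 by -0.57 ± 0.17, with wide spreads: Rfc4 was at 10.20, 9.63 and 10.18 at 22 h and at 9.49, 8.94 and 9.34 at 46 h. Their calls rested on single arrays. Without replicate 1 or 3 at 22 h, or replicate 2 at 46 h, Rfc4, Rfc3 and Dut did not pass, with adjusted p from 0.0715 to 0.144 (limma).

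Exo1, an exonuclease of mismatch repair and of the processing of DNA ends, had 8.73, 8.36 and 8.69 in its 22 h arrays, then 7.89, 7.96 and 7.87 by 34 h and 7.49, 7.45 and 7.50 by 46 h. The 46 h arrays lay within a narrow band well below those of 22 h, and the change was -1.11 ± 0.09 (adjusted p = 1.02e-07, limma). Fen1, the flap endonuclease that trims Okazaki fragments, changed by -0.76 and Tipin, a fork protection partner of Timeless, by -0.55. In nucleotide supply, the ribonucleotide reductase subunit genes Rrm1 and Rrm2 changed by -0.80 and -0.69. Tyms, thymidylate synthase, went from 9.97, 9.79 and 9.89 to 9.23, 9.12 and 9.13 (-0.72 ± 0.07), and Dut, which removes dUTP, changed by -0.63 ± 0.19. For Dut the lowest array of 22 h (8.45) was below the highest of 46 h (8.46).

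Among genes for chromatin behind the fork, Uhrf1, which brings the maintenance DNA methyltransferase to newly copied DNA, fell furthest. Its arrays read 9.54, 9.32 and 9.47 at 22 h, then 8.68, 8.96 and 8.72 by 34 h and 8.37, 8.34 and 8.28 by 46 h, with no overlap between these times (46 h against 22 h -1.11 ± 0.09, adjusted p = 6.26e-08, limma). Chaf1a and Chaf1b, subunits of the chromatin assembly factor CAF-1, changed by -0.71 and -0.57. Slbp, whose protein binds the stem-loop of histone messages, had the smallest change of the 28 that fell, -0.40 ± 0.09 (adjusted p = 0.00346, limma). A further probe set annotated to Slbp alone changed by -0.38.

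Among the regulators at the head of the pathway, Ccne2 passed the test, and Ccne1 and E2f1 did not. Ccne2, 1 of the genes for cyclin E, the partner of CDK2 at S phase entry, was at 8.68, 7.88 and 8.52 at 22 h and at 7.72, 7.26 and 7.62 at 46 h (-0.83 ± 0.18, adjusted p = 0.00365, limma). Ccne1, its paralog, was at 8.97, 8.69 and 8.97 at 22 h and at 8.81, 8.77 and 8.86 at 46 h, which overlap (-0.07 ± 0.07, adjusted p = 0.566, limma). With array weights Ccne1 did pass (-0.14, adjusted p = 0.0343, limma). The difference between Ccne1 and Ccne2, also a contrast chosen after the values were seen, averaged 0.52 ± 0.27 in the 22 h arrays (SD, n = 3). It averaged 1.28 ± 0.21 in those of 46 h (2-sided exact permutation p = 0.1, the smallest possible). E2f1, the activator that drives many of the other 30 genes, was at 9.49, 9.55 and 9.45 at 22 h and at 9.57, 9.66 and 9.53 at 46 h, a change of 0.09 ± 0.06 that did not pass (adjusted p = 0.344, limma) and that was -0.02 with arrays centred on their medians.

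The change built up unevenly over the 24 h. Relative to 22 h, the median of the 31 genes stood at -0.31 ± 0.05 by 26 h (SD, n = 3 arrays), reached -0.40 ± 0.04 by 30 h and -0.49 ± 0.09 by 34 h, and ended at -0.66 ± 0.10 and -0.69 ± 0.10 in the arrays of 40 h and 46 h. Of the change seen at 46 h, 44.8% was thus covered by 26 h, 71.2% by 34 h and 96.5% by 40 h. Without replicate 2 at 22 h the medians were -0.42, -0.52, -0.58, -0.76 and -0.78 in time order, and the shares 53.8%, 74.6% and 97.2%. Without replicate 1 at 22 h the medians were -0.26, -0.33, -0.42, -0.60 and -0.60. In the first step, from 22 h to 26 h, 11 of the 31 fell (limma, adjusted p under 0.05) against 1.23% of all genes, among them Mcm3 (-0.36 ± 0.07), Uhrf1 (-0.42 ± 0.09), Cdc45 (-0.32) and Mcm10 (-0.44), and in 16 of the 31 all 22 h arrays lay above all 26 h arrays, as in 7.05% of all genes. This count depended on single arrays: it was 0 without replicate 1 or 3 at 22 h or replicate 2 at 26 h, 4 and 5 without replicates 1 and 3 at 26 h, and 24 without replicate 2 at 22 h. Fitted on just the arrays of 22 h and 26 h, it was 0, and with the replicate number as a block 4.

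From 26 h to 30 h 0 of the 31 genes were called by limma, as were 0% of all genes, and the median step was -0.09. At an unadjusted p under 0.05 there were 0 of the 31, against 517 of all 19938 genes. From 30 h to 34 h again 0 were called, against 0.0903% of all genes, with a median of -0.10. The unadjusted count was 4 of the 31, against 1937 of all 19938 genes. From 34 h to 40 h the median step was -0.16, and Exo1 alone of the 31 was called lower (-0.43, adjusted p = 0.0318, limma), against 0.727% of all genes. At an unadjusted p under 0.05 there were 9, the most of these 4 steps, against 2490 of all 19938 genes. Exo1 did not pass without replicate 1, 2 or 3 at 34 h or replicate 1 at 40 h, and 3 genes passed without replicate 2 at 22 h. From 40 h to 46 h 0 were called by limma against 0.0351% of all genes. The unadjusted count was 1 of the 31, against 1616 of all 19938 genes. The median was 0.00, and 17 of the 31 estimates were below 0 and 14 above. The plot of changes by step shows the first step as the one furthest below 0.

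**Figure D3:**
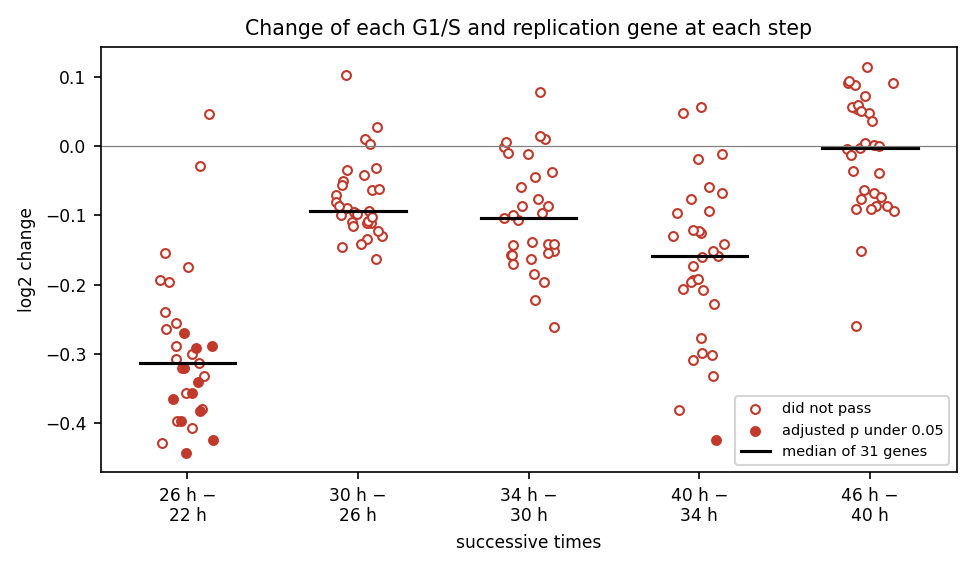
Points are the 31 genes, placed by their log2 change between successive times, filled where the adjusted p was under 0.05 (limma), and the black bars are medians. The medians lie at -0.31, -0.09, -0.10, -0.16 and 0.00, with 11 filled points in the first step and 1 in the fourth; the last 2 intervals are 6 h long and the others 4 h.

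The 24 h span divides into equal parts at 34 h. In the first 12 h 25 of the 31 genes fell (limma), against 4.1% of all genes, by a median of -0.50. The 6 that did not pass were Dut (-0.56), Rfc4 (-0.51), Rfc3 (-0.47), Mcm6 (-0.23), Ccne1 (-0.12) and E2f1 (0.05). Without replicate 2 at 22 h 30 passed, and without replicate 1 at 22 h 19 did, the highest and lowest counts with 1 array left out. The shares of all genes in these fits are not given here. In the second 12 h 5 fell, against 2.51% of all genes: Uhrf1 (-0.45 ± 0.09), Cdc45 (-0.35 ± 0.07), Exo1 (-0.43 ± 0.09), Mcm10 (-0.38 ± 0.10) and Mcm5 (-0.31 ± 0.08), with a list median of -0.18. That count was 2 or 3 without any 1 of 7 arrays (replicate 3 at 22 h, 1 at 26 h, 1 at 30 h, 1 or 2 at 34 h, 2 or 3 at 46 h), and 3 with the replicate number as a block. Both comparisons use the arrays of 34 h. The difference between the changes of these periods, tested in the same fit, was called in 0 of the 31 genes by limma, against 0.135% of all genes. At an unadjusted p under 0.05 there were 11 of the 31, against 2398 of all 19938 genes. This difference was above 0 in 7964 of all 19938 genes, with a median of -0.04. Among the 31 genes it was above 0, meaning a smaller fall in the later period, in 30, with a median of 0.31. The exception was E2f1, at -0.01, and for Cdc45 the changes of both periods were -0.35. A larger early than late fall is therefore a pattern of the estimates, and no single gene passed the test of it with all arrays. Without replicate 2 at 22 h 1 gene passed, and with arrays weighted by their quality 8 did. The shares of all genes called in these fits are not given here, so these counts have nothing to be set against.

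**Figure D4:**
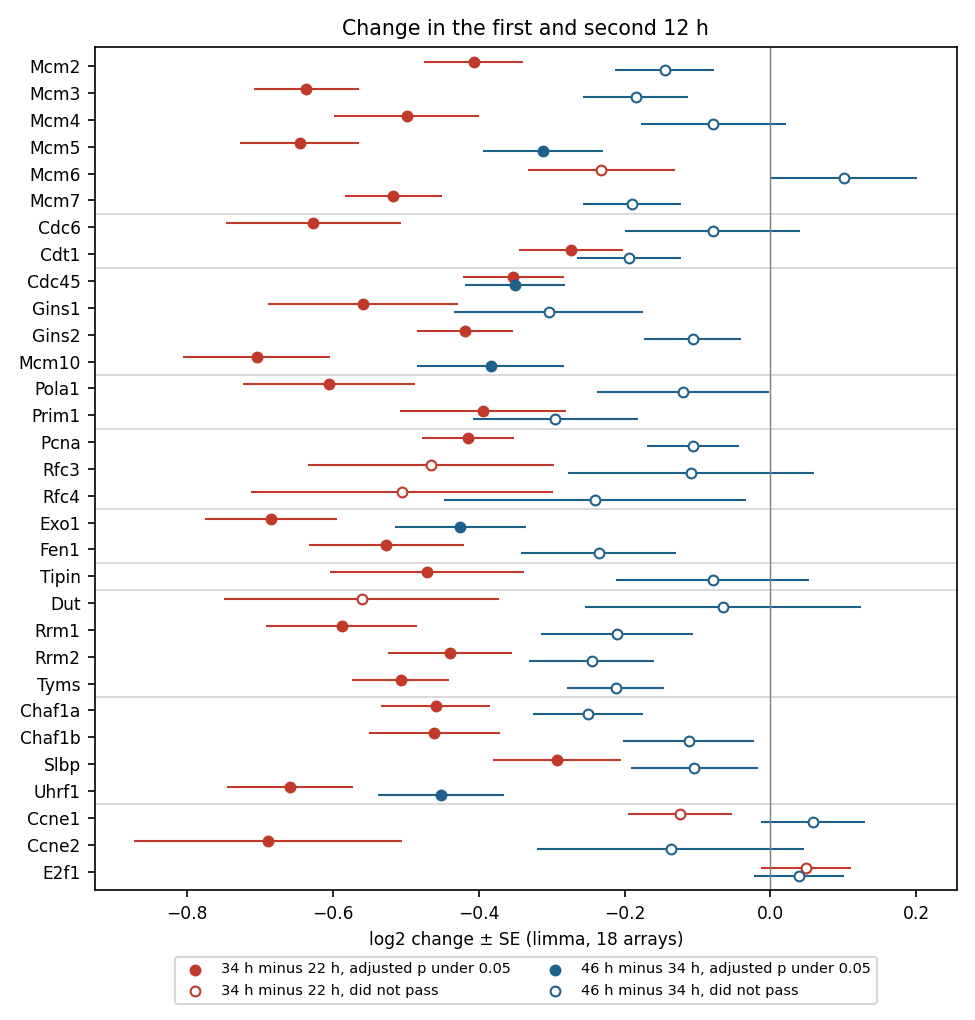
For each gene, the log2 change ± SE from 22 h to 34 h is in red and that from 34 h to 46 h in blue, filled where the adjusted p was under 0.05 (limma, 18 arrays). Filled red points number 25 and filled blue points 5, and the red point lies to the left of the blue in 30 of 31 rows.

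The design asks about a 24 h cycle. A cosine with a period of 24 h was called in 0 of the 31 genes by limma, against 0.828% of all genes. At an unadjusted p under 0.05 there were 4 of the 31, against 4248 of all 19938 genes. Amplitudes, measured from midline to crest, ran from 0.04 to 0.35 log2, and the smallest adjusted p was 0.169, for Cdc6. By construction this curve cannot differ between 22 h and 46 h. With a period of 26 h, which allows a difference, 6 of the 31 passed, against 9.96% of all genes. A period of 22 h, or a linear term in time beside the 24 h cosine, allows a difference too. Under each of these settings 0 of the 31 passed, and the share of all genes is not given here.

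At some times the 31 genes were low together in 1 array. At 22 h replicate 2 was the lowest array in 30 of the 31 genes, and the list median there was -0.19, against 0.12 and 0.07 in replicates 1 and 3. Over all genes, 33.8% of the variance within times lay along 1 component, on which replicate 2 at 22 h, replicate 2 at 46 h and replicate 1 at 40 h were the most negative arrays of their times. These were the lowest of their time in 30, 24 and 23 of the 31 genes. The most negative arrays at 26, 30 and 34 h (replicates 3, 1 and 2) were the lowest in 8, 14 and 4 of the 31. Each of these 6 arrays was the lowest of its time in 31.3% to 36.9% of all genes. Rfc4 was at 9.63, 8.94 and 8.69 in the arrays of 22, 46 and 40 h named above, the lowest value of each time. The labels give no batch, and what this component stands for was not tested.

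Replication genes outside the 31 behaved in the same direction. Of 67 measured genes of a second list, made up of origin recognition, polymerase, clamp loader, repair and checkpoint genes, 49 fell between 22 h and 46 h (limma) and 0 rose, against 9.73% and 11.5% of all genes, with a median of -0.48. The most certain were Ccna2 (-1.37 ± 0.07), which encodes cyclin A2, the histone chaperone gene Asf1b (-1.28), Ticrr (-1.22), which helps to fire origins, and Pole (-1.26), the catalytic subunit of polymerase epsilon. Its median had reached -0.24 ± 0.02 (SD, n = 3) by 26 h, -0.37 ± 0.06 by 34 h and -0.50 ± 0.05 by 46 h.

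Of 28 genes for E2F factors, pocket proteins, D cyclins, CDK inhibitors and the MuvB complex, 10 fell and 3 rose, against 9.73% and 11.5% of all genes, and the median was -0.12. E2f7 and E2f8, the atypical E2F repressors, which are themselves E2F targets, fell by 0.82 and 0.83, Cdkn2c by 0.48 and Mybl2, which encodes B-MYB, by 0.52. The 3 that rose were the cyclin D genes Ccnd3 (0.53 ± 0.07) and Ccnd2 (0.20 ± 0.06) and the CDK inhibitor gene Cdkn1c (0.27 ± 0.06). The 3 of 28 that rose are close to the 11.5% of all genes called higher, so these risers do not set the list apart. Of the 31 and the 67 replication genes 0 rose.

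Genes of the next cell cycle phase give a point of comparison. Of 36 measured genes of G2/M and mitosis 35 fell between 22 h and 46 h, against 9.73% of all genes, by a list median of -1.56, among them Aurka (-1.47 ± 0.06), Aspm (-1.91 ± 0.08), Prc1 (-1.72 ± 0.08) and Cdc25c (-1.78 ± 0.08), and Pttg1 rose (0.24 ± 0.05). Their median had reached -0.66 ± 0.10 (SD, n = 3) by 26 h, -0.83 ± 0.07 by 34 h, -1.34 ± 0.12 by 40 h and -1.54 ± 0.09 by 46 h, so that 42.5%, 53.5% and 86.6% of the 46 h change had been covered at 26, 34 and 40 h. For the 31 replication genes these shares were 44.8%, 71.2% and 96.5%. From 34 h to 40 h 29 of the 36 fell, beside 1 of the 31 and 0.727% of all genes. The lists share arrays, and whether their courses differ was not tested.

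**Figure D5:**
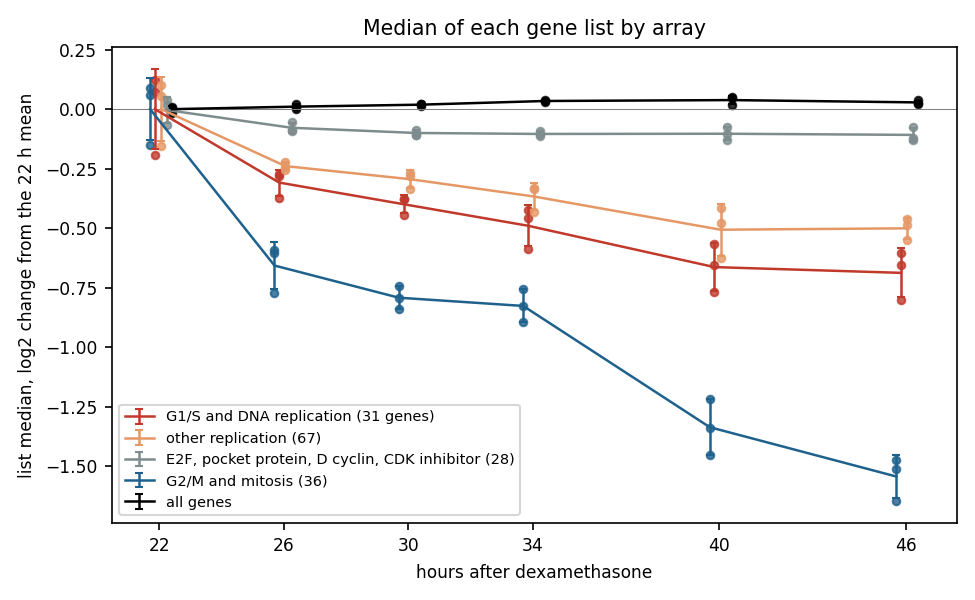
Points are arrays, each the median over a gene list of the log2 change from the 22 h mean, placed by hours after dexamethasone with small offsets, and lines join the mean ± SD of 3 arrays. The G1/S and replication median falls to -0.69 at 46 h, that of other replication genes to -0.50 and that of G2/M genes to -1.54, while the mean of the array medians over all 19938 genes stays within 0.04 of 0 at each time.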

How the data were processed

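RNA of 18 samples was measured on 1-colour Affymetrix arrays. The authors deposited 1 intensity per probe set and array on a linear scale (35556 probe sets). Per the submitters' processing notes, Affymetrix Expression Console 1.1 and PLIER 2.0 were used, with order and settings not given in the sources used. The platform annotation gave 1 symbol to 21789 probe sets, several to 1621 and none to 12146, and 21698 matched RefSeq by gene ID. The deposited intensities were taken as log2(intensity + 16) and quantile normalized, and the probe set with the highest mean was kept for each of 19938 genes. limma 3.58.1 (R 4.3.3) fitted 6 time means over 18 arrays, with Benjamini-Hochberg adjustment over all genes and a threshold of 0.05, and a separate 24 h cosine. Steps were tested on simulated data, with noise drawn independently for each gene and array. Such data lack the component of variance that genes share here, so they do not cover its effect on the calls. Members and lists were chosen with earlier results of these data known. Named were all members and, of other cell cycle lists, up to 4 called genes a direction with the smallest p from 22 h to 46 h. Alternatives were other scalings, constants, filters, probe set rules, blocks, weights, thresholds, periods and leaving out each array.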

Additional observations from a re-analysis of the deposited data

How the results depend on the processing

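Over the counts of called genes and the list medians, 173 of 187 values under other settings stayed within limits (a count within 1.5 times, a median within the spread of its arrays). The 187 include list medians under settings that cannot alter them, named below, so the tally overstates how much was tested. The count of 26 h against 22 h (11) was 4 with the replicate number as a block, 28 with array weights, 0 at an adjusted p of 0.01 and 0 with only the arrays of the 2 times. The count of 46 h against 34 h (5) was 3 with a constant of 1, 3 with the block and 2 at 0.01. The count of 40 h against 34 h (1) was 0 as deposited, 3 with median centring, 0 with the block, 0 at 0.01 and 0 with only the 2 times. The second against the first 12 h gave 8 with array weights, and the cosine gave 6 with a period of 26 h. The cosine count stayed at 0 with a period of 22 h or with a linear term in time. Shares of all genes are not given for the counts in this section, so these show only how the counts depend on the setting. E2f1 from 22 h to 46 h turned to -0.0208 with median centring (adjusted p = 0.813, limma), and Ccne1 passed with array weights (-0.14, adjusted p = 0.0343, limma). Rfc3 and Dut did not pass with only the 2 times (adjusted p = 0.0563 and 0.0722, limma). Apart from the smaller sample of fits on 2 times and the stricter threshold, the cause was not tested. Leaving out each array in turn gave 24 to 28 genes for any difference, 25 to 28 from 22 h to 46 h, 19 to 30 from 22 h to 34 h, 2 to 6 from 34 h to 46 h, 0 to 24 from 22 h to 26 h, 0 to 3 from 34 h to 40 h, 0 to 1 for the second against the first 12 h, and 0 for the other steps and the cosine. The list median ranged from -0.42 to -0.26 at 26 h, -0.52 to -0.33 at 30 h, -0.58 to -0.42 at 34 h, -0.76 to -0.60 at 40 h and -0.78 to -0.60 at 46 h. The deviations of same-numbered arrays of different times had a median correlation of -0.10 over 45 pairs (-0.559 to 0.495), of which 15 exceeded 0.1. Pairing by number was accepted only if every pair did, so the block was not used for the main values. Under the replicate block 28 genes were called from 22 h to 46 h and 22 from 22 h to 34 h. A filter on dim genes left 27 of the 31, of which 24 were called from 22 h to 46 h. Block, weights, variance model and threshold do not enter the list medians, nor does testing every probe set on its own. The medians under these settings are counted among the 187 values above, though they could not differ from the main ones. With 3 arrays a time, small steps between times are limited by the spread between arrays.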

Other observations

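Within protein complexes of replication outside the 31 genes, the estimates of change from 22 h to 46 h varied between subunit genes. These genes were picked after their values were seen, from the list of other replication genes, and differences between subunits were not tested. In the origin recognition complex, Orc1, the subunit known to be regulated in the cell cycle, fell by 1.06 and Orc6 by 0.24 ± 0.06 (SE). Orc2 (-0.31 ± 0.11), Orc5 (-0.23), Orc3 (-0.05) and Orc4 (-0.01 ± 0.13) did not pass (limma). The Orc2 estimate was thus the larger fall, though Orc6 passed and Orc2 did not. In polymerase epsilon, Pole fell by 1.26 and Pole2 by 0.67, while the small histone-fold subunit genes Pole3 and Pole4 were at -0.09 and -0.12. In the clamp loader, Rfc5 fell by 0.64 and Rfc2 by 0.45, and the large subunit gene Rfc1 was at -0.19.

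Estimates of some paralogs also lay apart, and differences within these pairs were not tested. The histone chaperone gene Asf1b fell by 1.28, and Asf1a was at -0.01 ± 0.14 (SE, adjusted p = 0.974, limma). Mcm8 fell by 1.08, and its partner Mcm9 was at -0.13 (adjusted p = 0.203, limma). Rrm2b, the p53-regulated counterpart of Rrm2, was at -0.10 and did not pass. Apart from such pairs, Cdc25a, a phosphatase that activates CDK2, was at -0.03 and the uracil glycosylase gene Ung at 0.08. Neither of them passed.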
